A study of Mus musculus with 20 samples.

Results

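The genes described here build the oxidative phosphorylation chain, the part of the mitochondrial inner membrane that turns electrons from NADH and succinate into a proton gradient and then into ATP. They were chosen by symbol among the protein-coding genes of the normalized count table: the Ndufa, Ndufb, Ndufc, Ndufs and Ndufv genes (assembly factors named Ndufaf left out), Uqcr genes, Cyc1, Cycs, the Cox4i, Cox5, Cox6, Cox7 and Cox8 families, the Atp5 genes, and the genes of the mitochondrial chromosome with an mt- symbol. The rule found 87 genes of the 14456 in the table, 76 on nuclear chromosomes and 11 on the mitochondrial chromosome. Of the 97 such genes in the GENCODE M21 annotation, the other 10 were not analysed here; they include the tissue-restricted isoforms Cox4i2, Cox6a2, Cox6b2, Cox8b and Ndufa4l2, and mt-Atp8 and mt-Nd4l.

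All libraries came from total RNA of bone marrow-derived macrophages (BMDM) of male C57BL/6J wild-type mice, 8 to 12 weeks old per the study's methods (8 weeks in its culture section), grown from tibia and femur marrow in M-CSF, and there were 5 groups of 4 libraries. In the first experiment, cells were held for 24 h in 25 mM glucose (high glucose, HG) or in 5.5 mM glucose with 19.5 mM mannitol, which matches the osmotic load (normal glucose, NG). In the second experiment, BMDM received PBS, exosomes from BMDM kept in normal glucose (BMDM-NG-exo) or exosomes from BMDM kept in high glucose (BMDM-HG-exo) for 24 h, at 2000000000 particles per ml. The study describes each exosome library as made with a separate exosome preparation and the labels give a date shared by 1 library of each exosome group; where nothing says that the glucose libraries were separate cultures, p-values measure only the spread between these libraries, which may be technical. Between the 2 experiments, group and experiment cannot be told apart, so levels are given side by side across them and no test crosses them except that of the difference of the 2 effects.

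Complex I takes electrons from NADH and complex III passes them from ubiquinol to cytochrome c, while complex IV hands them to oxygen and complex V, the ATP synthase, uses the resulting proton gradient. Most subunits are encoded in the nucleus and imported, but core subunits of complexes I, III, IV and V are encoded by the mitochondrial genome, which is transcribed from both strands by its own RNA polymerase into long precursors that are then cut. Complex II has nuclear genes only and was not part of the rule. Macrophages change the balance between glycolysis and oxidative phosphorylation with their activation state, which is why these genes are commonly examined in them.

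The values were normalized counts, that is, read counts divided by a library size factor, and whole reads could be recovered from them (34016445 to 56310712 reads on the listed genes per library). All 8 macrophage markers examined (Adgre1, Csf1r, Cd68, Itgam, Fcgr1, Mertk, Lyz2 and Cd14) were measured, with a summed normalized count of 628420 to 702912 in NG, 808014 to 878735 in HG and 717507 to 841224 in the exosome experiment. Of 5 neutrophil and granulocyte precursor markers 3 were measured, with sums of 65.2 to 145 in any library, and of 3 stromal markers 2 were measured, with sums of 82.5 to 321, while lymphocyte, erythroid and dendritic markers were not analysed here. In HG against NG, 4 of the 8 macrophage markers passed the test as higher (Csf1r, Lyz2, Cd14 and Adgre1) and 2 as lower (Mertk and Cd68), while Adgre1, Csf1r, Itgam, Fcgr1 and Cd14 passed as lower both with BMDM-HG-exo and with BMDM-NG-exo against PBS (log2 fold changes of -0.60 to -0.21 and of -0.41 to -0.16), and the part of these shifts in the results below was not tested. In bulk RNA, fewer cells of a type and less RNA per cell cannot be told apart.

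The sequences of the mitochondrial members matter for reading their counts, because mouse chromosome 1 carries a near-complete copy of part of the mitochondrial genome. Of mt-Co3, mt-Co2, mt-Atp6 and mt-Nd3, 99.85%, 99.49%, 99.48% and 97.59% of all 100-base windows, the length of a read, also occurred in an annotated transcript of another gene, whereas the share was 60.75% for mt-Nd4, 30.84% for mt-Co1, 3.195% for mt-Nd2 and 0% for mt-Nd1, mt-Nd5, mt-Nd6 and mt-Cytb. Each line below gives 60 bases 5′ to 3′ of a GENCODE M21 transcript (GRCm38), first of mt-Atp6, a core subunit of ATP synthase, with its copy, then of mt-Co1, a core subunit of complex IV, with its own. The capitals mark the bases at which gene and copy differ.
mt-Atp6 (bases 310 to 369): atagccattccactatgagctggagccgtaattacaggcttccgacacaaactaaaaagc
Gm10925 (chr1:24613974-24614651, minus strand): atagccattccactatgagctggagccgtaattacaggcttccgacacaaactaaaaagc
mt-Co1 (bases 1054 to 1113): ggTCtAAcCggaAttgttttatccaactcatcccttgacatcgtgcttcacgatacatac
Gm29216 (chr1:24615706-24616197, minus strand): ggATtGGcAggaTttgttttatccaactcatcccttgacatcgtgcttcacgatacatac
The mt-Atp6 copy was identical over all 678 bases compared, as were the copies of mt-Co2 over 681, of mt-Co3 over 783 and of mt-Nd4 over 876 bases. The mt-Nd3 copy differed at 1 base of 345 and the mt-Co1 copy at 6 of 492, all within its first bases, with 479 identical bases in a row after them.

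The 4 genes with nearly all windows shared were listed at the lowest levels of the mitochondrial members. Across the 20 libraries mt-Atp6 ranged from 9.06 to 27.1 normalized counts, mt-Co3 from 6.40 to 26.6, mt-Co2 from 13.4 to 41.0 and mt-Nd3 from 65.4 to 165. By contrast mt-Co1 ranged from 109740 to 141139, and the lowest mean of the other 7 was 7393 normalized counts (mt-Nd6). Per kilobase of exon, mt-Co1 stood at 79176, mt-Nd5 at 28939, mt-Cytb at 28659, mt-Nd1 at 20251, mt-Nd6 at 14245, mt-Nd4 at 10211 and mt-Nd2 at 7881 normalized counts, then mt-Nd3 at 358, mt-Co2 at 36.2, mt-Atp6 at 25.7 and mt-Co3 at 23.1. The copies themselves were listed low as well, with means of 38.6 for Gm10925, 31.2 for the mt-Co3 copy Gm28437, 30.3 for the mt-Co2 copy Gm28661 and 105 for Gm29216. How reads that match more than 1 place were treated is not given in the sources used here, and the part of shared sequence in these low levels was not tested. The 4 genes together held 0.0720% of the normalized counts of the mitochondrial members and mt-Co1 held 47.6%, so sums over mitochondrial members mostly describe mt-Co1, mt-Nd5, mt-Cytb, mt-Nd1, mt-Nd4, mt-Nd2 and mt-Nd6.

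**Figure D1:**
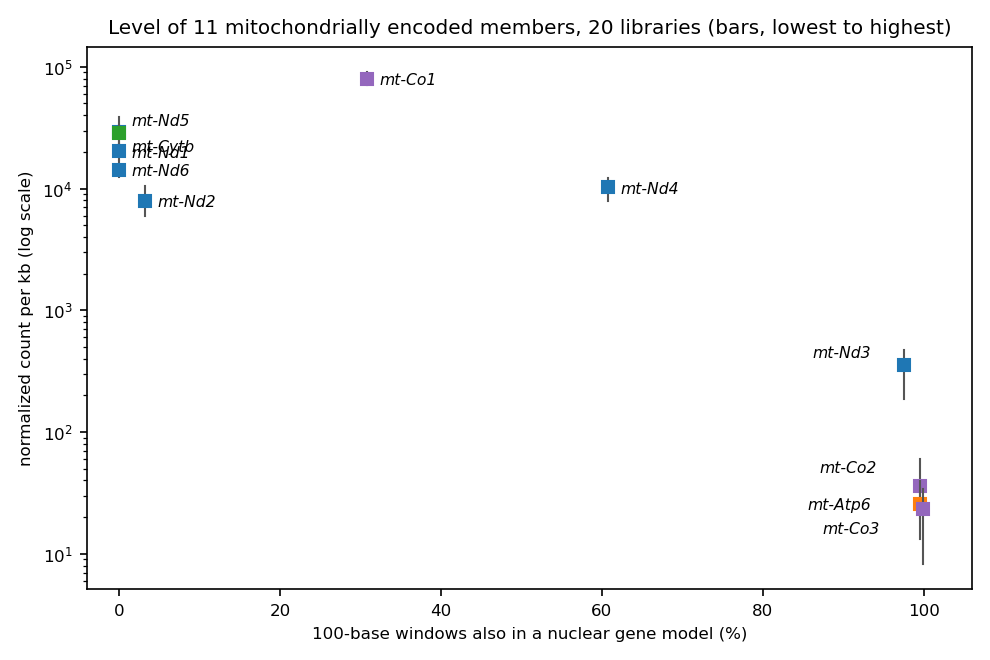
Each square is a mitochondrially encoded member, with the share of its 100-base windows that also occur in a transcript of another gene on the x axis (percent) and its mean normalized count per kilobase of exon over 20 libraries on a log y axis; bars run from the lowest to the highest library and colours mark complexes I (blue), III (green), IV (purple) and V (orange). The 4 members with over 90% of windows shared lie between 23.1 and 358 per kilobase and the other 7 between 7881 and 79176.

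The nuclear members lay on 19 chromosomes, with at most 6 on any, and were short and abundant. Their median exon length was 1697 bases against 4508 over the 11572 nuclear protein-coding genes of the table, and 67 of 76 had a level per kilobase above the median of those genes (689 at the members' median against 202). Shared sequence was low for most of them: 44 of 76 had no 100-base window in another gene's transcript and none had over 50%, with Atp5g2 highest at 34.7%. In complex V the highest level per kilobase was 4271 normalized counts for Atp5a1, the alpha subunit of the F1 head, and the lowest 35.7 for Atp5s, the coupling factor B. In complex IV, Cox4i1, the general isoform of subunit IV, stood at 3699 and Cox7a1, the isoform known from heart and skeletal muscle, at 54.1. In complex I the range ran from 62.3 (Ndufb2) to 2264 (Ndufa2), accessory subunits both, and in complex III from 367 (Cyc1) to 2195 (Uqcrb). Exon length was the union of all annotated exons of a gene, 5628 bases for Ndufb2 and 572 for Ndufa2. Their mean normalized counts were 351 and 1295, and Ndufb4 had a lower mean count than Ndufb2, at 255. Levels per kilobase thus depend on the annotated length. Cycs, the mobile electron carrier cytochrome c, stood at 198 normalized counts per kilobase.

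Among the genes of the Cox7a family the muscle isoform Cox7a1 had the lowest level. Cox7a2 stood at 549 and Cox7a2l, a supercomplex assembly factor related to it, at 2807 normalized counts per kilobase, against 54.1 for Cox7a1. Cox6a1 stood at 2170, Cox6b1 at 1661, Cox8a at 2801 and Ndufa4 at 265, and their tissue-restricted partners were not analysed here. The 3 genes for the same mature c subunit of the ATP synthase rotor stood at 507 (Atp5g3), 349 (Atp5g2) and 102 (Atp5g1) normalized counts per kilobase. In the same order their union exon lengths were 2181, 1675 and 4912 bases and their mean normalized counts 1106, 584 and 499. The part of annotated exon length in the order per kilobase was not tested.

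Promoter windows of RefSeq (GRCm38.p6, 250 bases before to 50 after the start) were found for 62 of the 76 nuclear members. They were searched on both strands for letters of the sites of factors known to act on respiratory genes, namely CGCATGCG for NRF1, CCGGAAG for ETS factors such as GABPA, and AAGATGGC for YY1, and no matches overlapped each other in the member windows. The NRF1 letters were in windows of 16.1% of member genes against 2.07% of all 27025 genes with a window, the ETS letters in 22.6% against 9.93% and the YY1 letters in 14.5% against 3.19%. Any of the 3 was found in 27 of 62 members (43.55%) against 14.15% of all genes with a window. Those 27025 genes were not limited to the genes of the count table, while the members are abundant. The part of expression level in these shares was not tested. The YY1 letters lay in 7 of the 32 complex I genes with a window and in 2 of 13 complex V genes. Windows are shown for Atp5j, the coupling factor 6 subunit and the single member with all 3 matches, and for Cycs. They are also shown for Atp5h, Atp5b and Cox5a, which were called in high glucose with overlapping groups (below). Cyc1 and Cox4i1, called there without overlap, had no window. Each is the 250 bases before the start, 5′ to 3′ on the gene's strand, with matches in capitals.
Atp5j (chr16:84834977-84835226, minus strand): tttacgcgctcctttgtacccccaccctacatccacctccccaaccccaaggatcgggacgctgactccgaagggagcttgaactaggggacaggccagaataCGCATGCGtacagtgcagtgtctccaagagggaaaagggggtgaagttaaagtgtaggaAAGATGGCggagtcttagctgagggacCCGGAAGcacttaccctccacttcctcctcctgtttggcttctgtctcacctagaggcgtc
Cycs (chr6:50566570-50566819, minus strand): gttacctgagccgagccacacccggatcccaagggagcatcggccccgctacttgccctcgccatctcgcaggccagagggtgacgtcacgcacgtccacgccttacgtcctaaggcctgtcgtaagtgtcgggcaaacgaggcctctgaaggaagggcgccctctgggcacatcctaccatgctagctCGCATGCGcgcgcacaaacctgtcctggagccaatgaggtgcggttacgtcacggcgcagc
Atp5h (chr11:115419920-115420169, minus strand): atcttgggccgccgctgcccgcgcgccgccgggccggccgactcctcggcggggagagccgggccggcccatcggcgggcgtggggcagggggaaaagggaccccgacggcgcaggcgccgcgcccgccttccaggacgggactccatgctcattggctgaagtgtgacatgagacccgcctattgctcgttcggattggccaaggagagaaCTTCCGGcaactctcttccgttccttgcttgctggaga
Atp5b (chr10:128083057-128083306, plus strand): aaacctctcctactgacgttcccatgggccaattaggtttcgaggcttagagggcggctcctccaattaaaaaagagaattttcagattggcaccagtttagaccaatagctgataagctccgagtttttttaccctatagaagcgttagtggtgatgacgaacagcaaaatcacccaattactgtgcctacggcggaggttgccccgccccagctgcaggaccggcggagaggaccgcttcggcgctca
Cox5a (chr9:57520982-57521231, plus strand): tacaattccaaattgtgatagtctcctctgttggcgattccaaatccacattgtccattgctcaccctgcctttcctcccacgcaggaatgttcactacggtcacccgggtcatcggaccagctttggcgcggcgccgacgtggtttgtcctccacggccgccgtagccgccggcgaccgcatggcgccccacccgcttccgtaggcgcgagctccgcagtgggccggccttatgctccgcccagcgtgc
In order, the capitals mark NRF1, YY1 and ETS letters in Atp5j, NRF1 letters in Cycs and the reverse complement of the ETS letters in Atp5h, while Atp5b and Cox5a held none of the 3 in this window. In high glucose, described below, the median log2 fold change was 0.05 for the 35 genes with no match (-0.21 to 0.20). It was 0.07 for the 22 with matches to 1 of the motifs (-0.13 to 0.22) and 0.08 for the 4 with matches to 2 (-0.01 to 0.16). Atp5j itself stood at 0.03. These ranges overlap, and a difference between them was not tested.

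The first comparison asked how these genes responded to high glucose itself. Nuclear members leaned to higher levels by small amounts and mitochondrial members to lower levels. By the limma test on log2(normalized count + 1) with Benjamini-Hochberg adjustment over 14425 genes, 5 of 76 nuclear members rose in HG (adjusted p under 0.05) and 0 fell. This is 6.58% of them, against 7.74% of all genes tested that rose, so the share called was no higher than the background. The median log2 fold change of the nuclear members was 0.07 and 59 of 76 were above 0, against a median of 0.00 and 49.2% above 0 over all genes tested. This lean was not particular to them. Of the cytosolic ribosome genes 87.8% were above 0 (median 0.12), and of the mitochondrial ribosome genes 68.8% (median 0.05). Under 16 other settings the median of the nuclear members ran from 0.01 to 0.07, so the size of the lean depended on the setting. Of the 11 mitochondrial members, 1 fell (mt-Cytb) and 0 rose, where 5.53% of all genes fell, and their median was -0.08 with 2 of 11 above 0. Without NG 3 that median was -0.01 and 0 of them were called.

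Split by complex, 0 to 2 nuclear genes were called in each, where 7.74% of all genes tested were called higher. Counts this small do not set complex I apart from the others. The single cytochrome c gene was not called. Complex I had 0 of 36 called by limma, with 5 at an unadjusted p under 0.05 (25.4% of all genes tested) and a median log2 fold change of 0.03. Complex III had 1 of 9 called and a median of 0.07, complex IV 2 of 13 and a median of 0.10, and complex V 2 of 17 and a median of 0.07. For all 36 complex I genes the 95% interval of the change lay within 1.5-fold either way, and this held for 74 of the 76 nuclear members, Cox7a1 and Atp5s being the exceptions at means of 28.9 and 72.7 normalized counts over all libraries. Whether the complexes differ from each other was not tested.

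Cyc1 (ENSMUSG00000022551, chr15:76343523-76346260, plus strand), the cytochrome c1 subunit through which complex III hands electrons on, had the clearest change. Its normalized counts were 619, 641, 663 and 687 in NG and 765, 793, 813 and 846 in HG, so the groups did not overlap. The log2 fold change was 0.30 ± 0.08 (SE, n = 4 and 4, adjusted p = 0.00706), from 653 ± 29.1 to 804 ± 33.8 (mean ± SD). It stayed called when any 1 of the 8 libraries was left out (adjusted p up to 0.0375).

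Cox4i1 (chr8:120668222-120674207), the general subunit IV of complex IV, had 4648, 5237, 5441 and 5614 normalized counts in NG and 5615, 5694, 5858 and 6055 in HG. The lowest HG library lay just above the highest NG library. Its log2 fold change was 0.15 ± 0.05 (SE, n = 4 and 4, adjusted p = 0.0246). The call was lost without NG 3 (adjusted p = 0.148), HG 2 (0.0663) or HG 6 (0.112). Cyc1 and Cox4i1 were the only called nuclear members whose groups did not overlap.

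The other 3 called nuclear members had overlapping groups and are named because they were called. Cox5a, subunit Va of complex IV, had 973, 1018, 1038 and 1145 in NG and 1077, 1213, 1237 and 1279 in HG (log2 fold change 0.20 ± 0.07, SE, adjusted p = 0.0491). Atp5b, the catalytic beta subunit of the F1 head, had 5839, 6564, 6677 and 7033 in NG and 6820, 7037, 7411 and 7537 in HG (0.14 ± 0.05, SE, adjusted p = 0.0308). Atp5h, subunit d of the stalk that holds the head in place, had 3797, 3905, 4044 and 4212 in NG and 4154, 4280, 4458 and 4605 in HG (0.13 ± 0.05, SE, adjusted p = 0.0450). Each had 1 or more NG libraries inside the HG range. They kept their calls in 2, 3 and 3 of the 8 fits without 1 library: Cox5a was called only without HG 1 or NG 6, Atp5b only without HG 1, NG 1 or NG 6, and Atp5h only without HG 4, NG 1 or NG 3, with adjusted p up to 0.179 otherwise.

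Counting libraries apart from the model, all 4 HG libraries lay above all 4 NG libraries for 6 nuclear members, 7.89% of them against 9.18% of all genes tested, and below for 0 nuclear and 0 mitochondrial members against 7.11%. Among them, beside Cyc1 and Cox4i1, were Ndufs7, a core subunit of complex I, Uqcrc1, a core subunit of complex III, and Cox5b, subunit Vb of complex IV, with log2 fold changes of 0.13, 0.07 and 0.10 and adjusted p values of 0.17 to 0.319. Cycs had 582, 637, 710 and 752 normalized counts in NG and 706, 707, 768 and 792 in HG, which overlap (log2 fold change 0.15 ± 0.09, SE, adjusted p = 0.267).

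**Figure D2:**
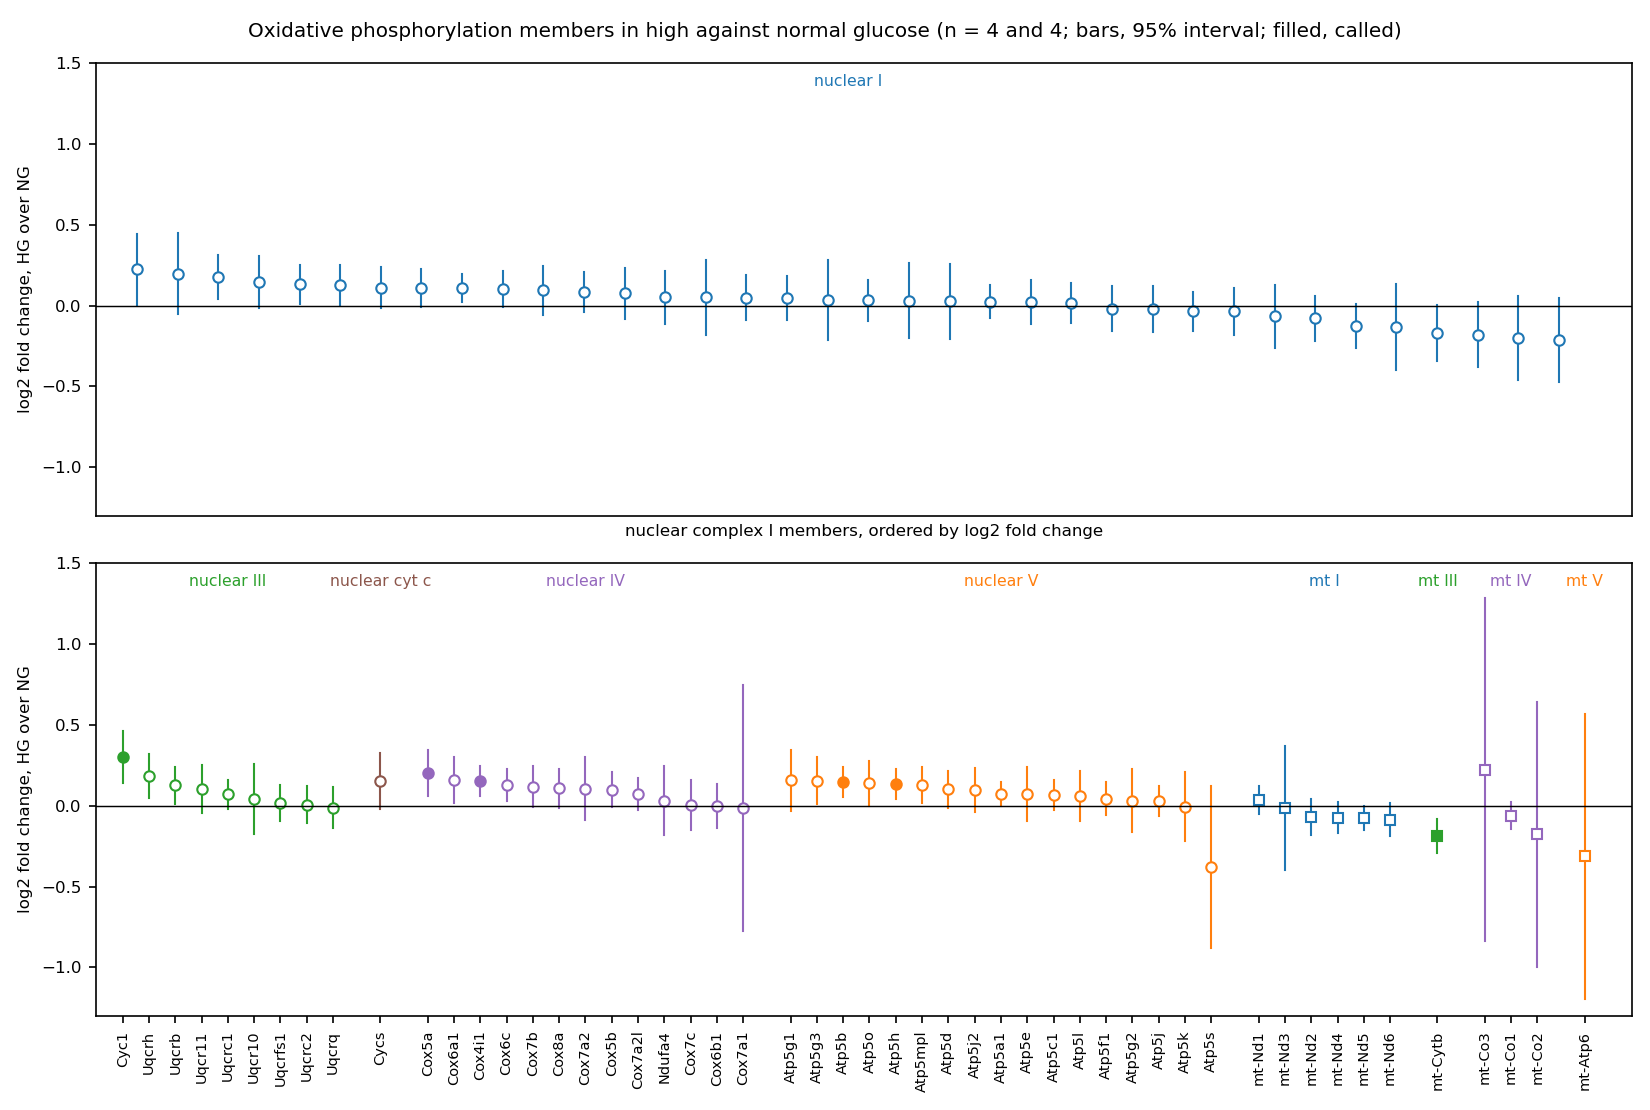
Log2 fold change of each of the 87 members in HG over NG (y axis), with bars for the 95% interval of the limma fit on 4 and 4 libraries; circles are nuclear and squares mitochondrial members, grouped and coloured by complex, and filled symbols passed the test. The 36 complex I genes in the upper panel, ordered by value and drawn without names, lie on both sides of 0, 24 above and 12 below, with no filled symbol, and the filled symbols below are Cyc1, Cox5a, Cox4i1, Atp5b, Atp5h and, below 0, mt-Cytb.

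mt-Cytb (chrM:14145-15288, plus strand), the sole mitochondrially encoded subunit of complex III, had 33385, 33560, 37597 and 44469 normalized counts in NG and 30665, 32031, 33287 and 34006 in HG. It fell by 0.19 ± 0.05 on the log2 scale (SE, n = 4 and 4, limma adjusted p = 0.0119). The groups overlapped, and NG 3 was the highest of all 20 libraries. Without NG 3 the log2 fold change was -0.10 (adjusted p = 0.0771), and without HG 1 it was -0.16 (adjusted p = 0.0574). Cyc1 and mt-Cytb, whose proteins sit in the same complex, were thus called in opposite directions, with overlapping groups for mt-Cytb.

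The other mitochondrial members did not pass the test. The 4 complex I genes with few or some shared windows and a value below 0, mt-Nd2, mt-Nd4, mt-Nd5 and mt-Nd6, had log2 fold changes of -0.07, -0.08, -0.08 and -0.09, mt-Co1 had -0.06 and mt-Nd1 had 0.04, with adjusted p of 0.204 to 0.629. For the 7 members with under 90% of windows shared, every 95% interval lay within 1.5-fold either way. The 4 low members had wide intervals, from -1.19 to 0.57 for mt-Atp6, -0.996 to 0.64 for mt-Co2, -0.84 to 1.28 for mt-Co3 and -0.40 to 0.37 for mt-Nd3. Changes of the size seen in other members were thus not detectable in these 4. mt-Nd6 is the single mitochondrial member annotated on the minus strand, and its change had the sign of most of the others.

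**Figure D3:**
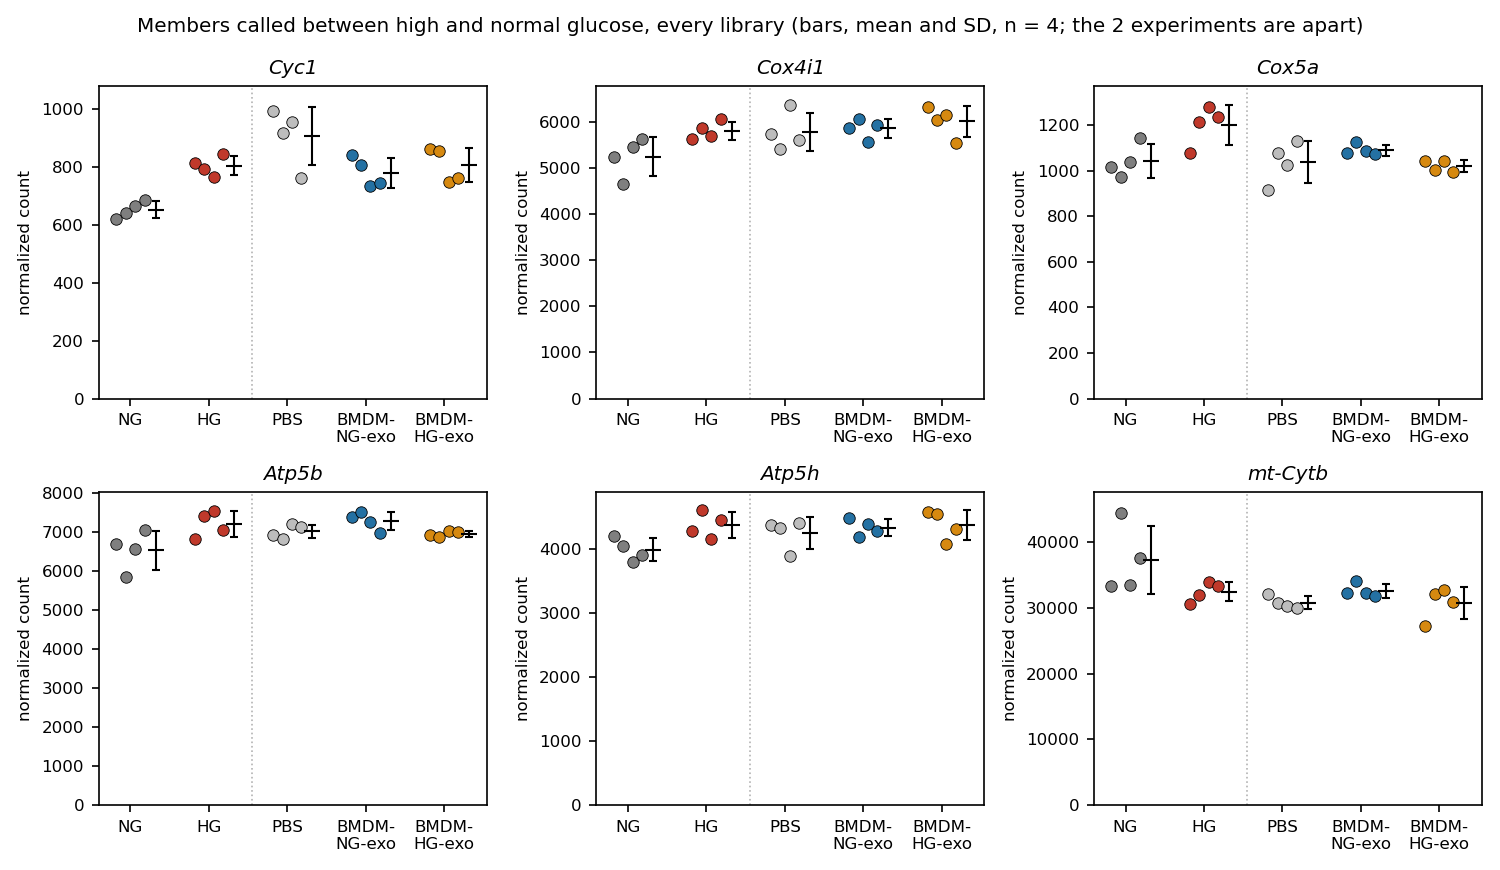
Normalized counts (y axis from 0) of the 6 members called between HG and NG, with a point for each library in each of the 5 groups and bars for mean and SD (n = 4); a dotted line parts the 2 experiments. Cyc1 in NG, at 619 to 687, lies below every library of the other 4 groups, and the mt-Cytb mean in NG is raised by a single library at 44469.

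Summed over members, the nuclear normalized count was 122127 ± 4367 in NG and 129014 ± 2578 in HG (mean ± SD, n = 4), and 129118 ± 3221, 130720 ± 2888 and 129326 ± 3952 in BMDM given PBS, in those given BMDM-NG-exo and in those given BMDM-HG-exo. The mitochondrial sum was 272550 ± 25525 in NG and 257851 ± 6998 in HG, against 251462 ± 3620, 259327 ± 5987 and 244341 ± 16521 in the same order. There were 1.95 to 2.04 mitochondrial member reads per nuclear member read in HG and 2.01 to 2.61 in NG, with NG 3 at 2.61 and the other NG libraries at up to 2.20. Library NG 3 held both the highest mitochondrial sum, 304584, and the lowest nuclear sum, 116701, of all 20 libraries. At the other end BMDM-HG-exo 1 had the lowest mitochondrial sum, 220427, and a ratio of 1.64, although its nuclear sum was 134413, second only to BMDM-NG-exo 1 at 134670. These sums were not tested.

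**Figure D4:**
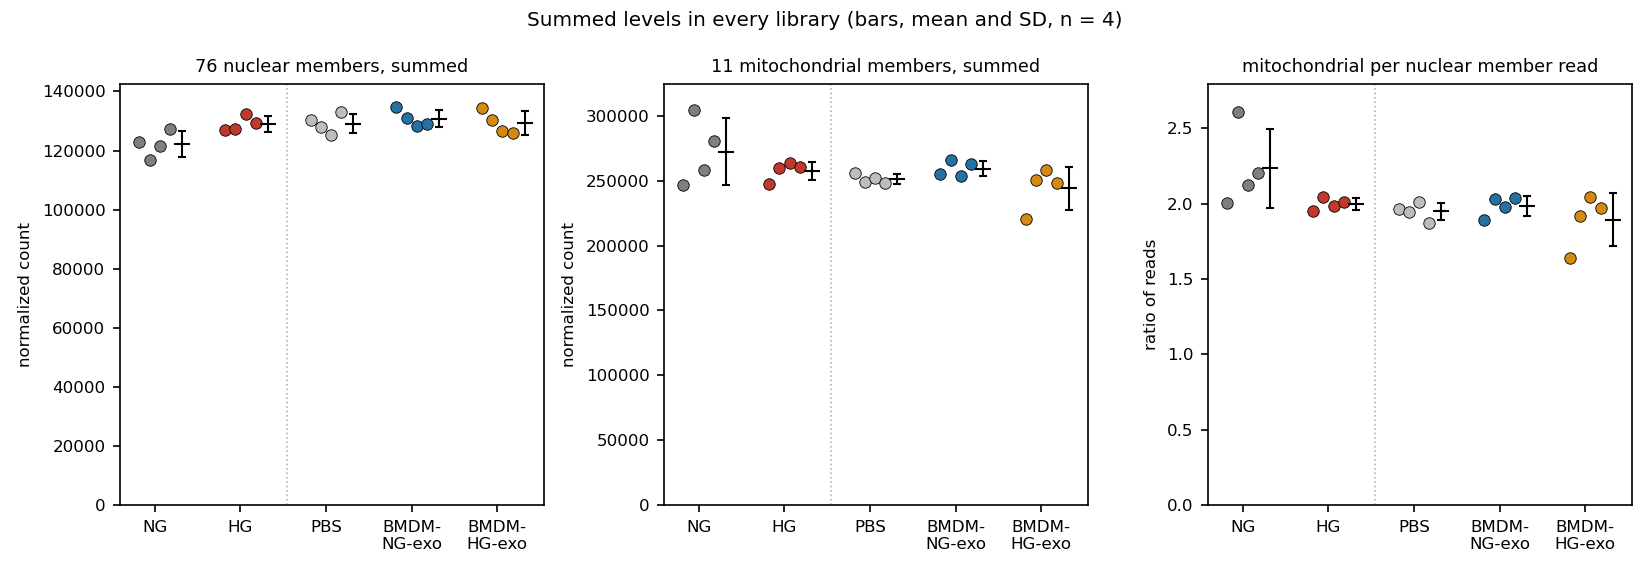
Summed normalized counts of the 76 nuclear members (left), of the 11 mitochondrial members (middle) and the reads on mitochondrial per read on nuclear members (right), with a point for each library and bars for mean and SD (n = 4); all y axes start at 0. NG 3 at 2.61 and BMDM-HG-exo 1 at 1.64 are the extremes of the ratio.

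The second experiment asked whether exosomes of BMDM kept in high glucose altered these genes in cells that received them. In limma fits over 14413 genes, called where the adjusted p was under 0.05 and the log2 fold change reached 0.15 in size, 0 of 87 members were called for BMDM-HG-exo against BMDM-NG-exo, where 0.0139% of all genes were called (2 genes, or 22 with the date as a block). The count of members was also 0 for BMDM-HG-exo against PBS (4.84% of all genes called), for BMDM-NG-exo against PBS (3.0%) and for BMDM-HG-exo against PBS and BMDM-NG-exo combined (0.201%). edgeR and DESeq2 on the recovered reads called 0 members in all 4 as well. At an unadjusted p under 0.05 there were 6 of 76 nuclear and 6 of 11 mitochondrial members between the exosome groups, where 6.54% of all genes lay under it. The counts were 5 and 1 for BMDM-HG-exo against PBS (16.9% of all genes), 7 and 3 for BMDM-NG-exo against PBS (13.5%), and 6 and 3 against the combined controls (10.5%). The comparisons share libraries and are not independent of each other. Mitochondrial members are cut from shared precursors and do not count as independent genes either. Whether they are enriched cannot be judged from their counts beside these shares, and it was not tested. Their values by date are given below.

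The nuclear medians in this experiment were near 0. The median log2 fold change of the 76 nuclear members was -0.03 for BMDM-HG-exo over BMDM-NG-exo, -0.02 over PBS, and 0.03 for BMDM-NG-exo over PBS, with medians by complex between -0.06 and 0.05 for complexes I, III, IV and V. For 74 of 76 the 95% interval between the exosome groups lay within 1.5-fold either way. Of the nuclear members with the smallest p against the combined controls, Ndufv3, a small accessory subunit next to the NADH site, was at -0.15 ± 0.06 (SE, adjusted p = 0.273), Uqcr10 at -0.21 ± 0.08 (0.351) and Uqcr11 at -0.15 ± 0.06 (0.397), both small complex III subunits. In the other direction Ndufb6 was at 0.25 ± 0.12 (SE, adjusted p = 0.465), Ndufab1, the mitochondrial acyl carrier protein, at 0.11 ± 0.06 (0.579) and Atp5mpl at 0.11 ± 0.06 (0.582).

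Ndufv3, Ndufa9 and Ndufa4 showed the clearest split between the exosome groups without passing the test. Ndufa4, counted here with complex IV, had 369, 383, 411 and 422 normalized counts with BMDM-NG-exo, 304, 316, 328 and 358 with BMDM-HG-exo and 321, 338, 342 and 351 with PBS, so all BMDM-NG-exo libraries lay above both other groups. Ndufa9, which steadies the quinone end of complex I, had 1231, 1278, 1334 and 1413 with BMDM-NG-exo and 1065, 1151, 1177 and 1189 with BMDM-HG-exo. Their log2 fold changes between the exosome groups were -0.28 ± 0.11 and -0.20 ± 0.07 (SE), with adjusted p of 0.635 and 0.536. With Cox5a and Ndufv3, 4 of 76 nuclear members did not overlap between the 2 groups, all lower with BMDM-HG-exo, where 2.01% of all genes tested lay lower in this way. These genes were chosen after their values were seen.

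Mitochondrial members were lower with BMDM-HG-exo than with BMDM-NG-exo in value, and BMDM-HG-exo 1 had the lowest level of mt-Nd1. Between these groups 10 of 11 were below 0 and the median log2 fold change was -0.13, the smallest adjusted p being 0.409 for mt-Nd1 (-0.13 ± 0.04, SE). mt-Nd1 had 19189, 19696, 19875 and 19903 normalized counts with BMDM-NG-exo and 16452, 17672, 18740 and 19328 with BMDM-HG-exo, the lowest of these in library 1. Taken date by date, the median over the 7 members with under 90% of windows shared was -0.29 on the date of libraries 1, -0.09 on that of libraries 2, 0.02 on that of libraries 3 and -0.09 on that of libraries 4. Without BMDM-HG-exo 1 the median of the 11 was -0.06. With BMDM-NG-exo against PBS the same 7 members had 6 above 0, a median of 0.08 and a smallest adjusted p of 0.225 for mt-Nd5, and 2 of them, mt-Nd5 and mt-Nd2, were higher without overlap, as were 3.64% of all genes tested.

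**Figure D5:**
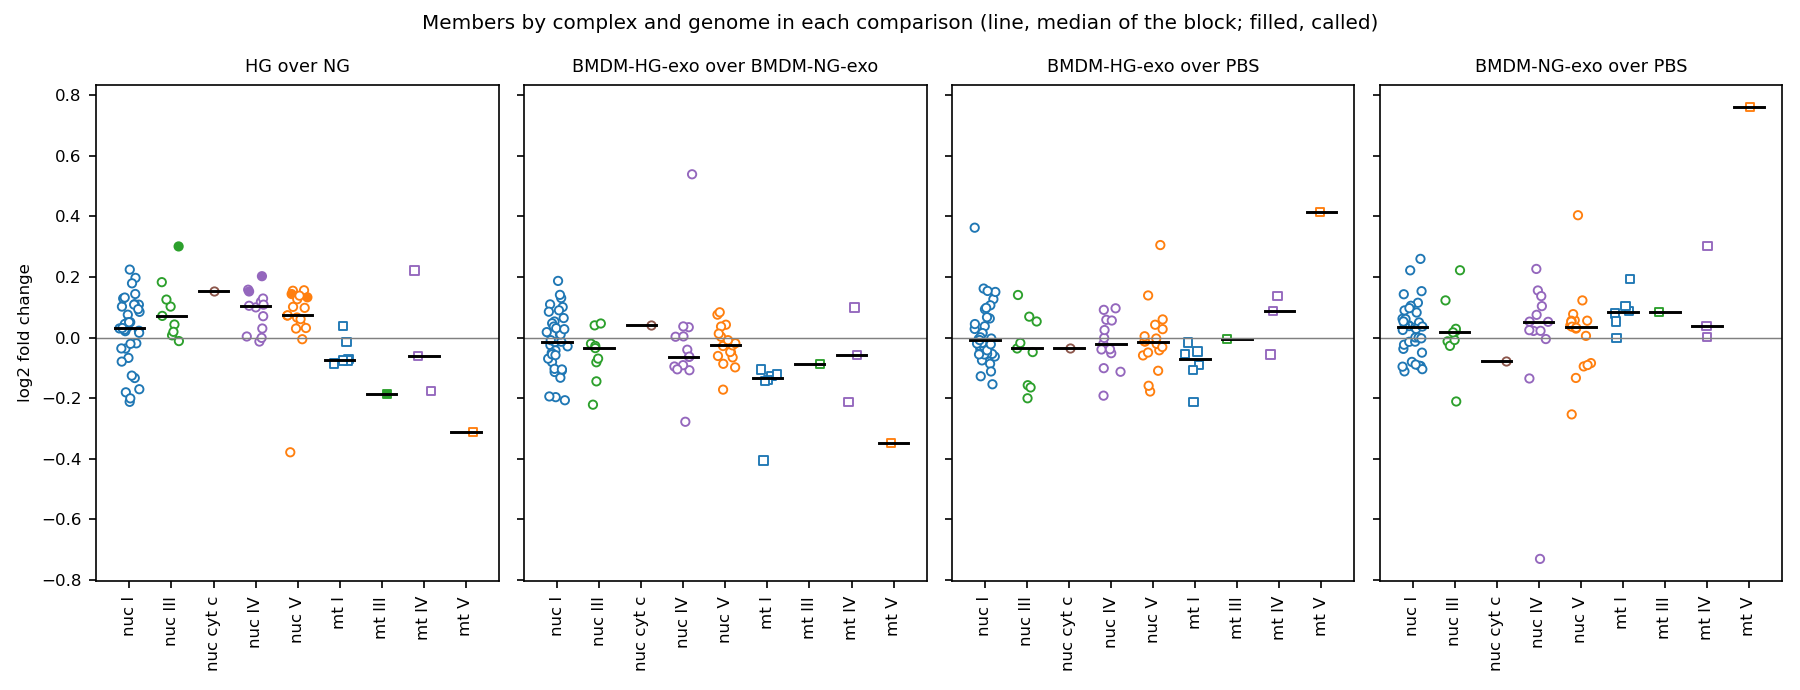
Log2 fold changes (shared y axis) of the members in 4 comparisons, split on the x axis by genome (circles nuclear, squares mitochondrial) and complex; the black line is the median of each block and filled symbols passed the test. Filled symbols appear in the HG over NG panel only, and the points farthest from 0 elsewhere are low-count genes, Cox7a1 at 0.54 and -0.73 and mt-Atp6 at 0.76.

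The effect of high glucose was compared with that of its exosomes by 1 contrast over all 20 libraries, the HG minus NG difference less the BMDM-HG-exo minus BMDM-NG-exo difference. Here 1 of 76 nuclear members passed the test as higher, against 3.27% of all genes, and 0 of 11 mitochondrial members passed it. That gene was Atp5b, with a difference of 0.21 ± 0.06 on the log2 scale (SE, limma adjusted p = 0.0300). With BMDM-NG-exo it had 6957, 7250, 7369 and 7504 normalized counts and with BMDM-HG-exo 6853, 6917, 6991 and 7016, where the order is the reverse of that in the glucose experiment. The call was lost in 6 of 20 fits without 1 library, namely without NG 3, HG 2, HG 4, BMDM-NG-exo 1, BMDM-NG-exo 2 or BMDM-HG-exo 2, with adjusted p up to 0.108. For Cyc1, which rose in HG, the difference of the effects was 0.25 ± 0.11 (SE, adjusted p = 0.229), so a smaller response to the exosomes was not shown by this test.

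Genes that serve the chain without belonging to it gave the following counts in HG against NG, where 7.74% of all genes tested rose and 5.53% fell. The 4 genes of complex II had 0 called by limma (1 at an unadjusted p under 0.05) and a median log2 fold change of 0.01. Of 57 assembly factors of all complexes tested, 0 rose and 1 fell, with a median of -0.03. The gene that fell was Cox17, the copper chaperone for complex IV, at -0.34 ± 0.10 (SE, adjusted p = 0.0198), from 704 ± 119 normalized counts in NG to 554 ± 47.9 in HG (mean ± SD), with overlapping groups. Its adjusted p was 0.112 without NG 3, 0.0770 without NG 6 and 0.0976 without HG 6, and the other 5 fits without 1 library kept the call. Of 77 mitochondrial ribosome genes 3 rose and 0 fell (3.90%, median 0.05), and of 90 cytosolic ribosome genes 41 rose and 0 fell (45.6%, median 0.12). The 10 regulators tested were all above 0, with a median of 0.09 and 1 called.

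Among 32 genes for expression and replication of the mitochondrial genome 2 rose, 0 fell and the median was 0.02. Of all genes tested 7.74% rose and 5.53% fell, so this count is no sign of a change of the list. The called pair was Polrmt, the mitochondrial RNA polymerase, and Pnpt1, the polynucleotide phosphorylase of the degradosome. Polrmt had 857 ± 48.4 normalized counts in NG and 1070 ± 88.4 in HG (mean ± SD), with no overlap and a log2 fold change of 0.32 ± 0.07 (SE, adjusted p = 0.00241), and Pnpt1 had 1282 ± 87.4 and 1539 ± 125 (0.26 ± 0.07, SE, adjusted p = 0.00506). Tfam, which packs and transcribes mitochondrial DNA, was at -0.15 ± 0.08 (SE, adjusted p = 0.235) and Tfb2m, its partner in initiation, at 0.03 ± 0.10 (0.914). The called regulator was Pprc1, a PGC-1 family coactivator, at 0.24 ± 0.07 (SE, adjusted p = 0.00870). Ppargc1b was at 0.33 ± 0.15 (SE, adjusted p = 0.155), Nrf1 at 0.14 ± 0.06 (0.137), Esrra at 0.08 ± 0.09 (0.599) and Gabpa at 0.05 ± 0.05 (0.576), and Ppargc1a was not analysed here. Pnpt1 missed the threshold without HG 6 (adjusted p = 0.0530) and Pprc1 without NG 6 (adjusted p = 0.0564), while Polrmt passed in all 8 fits without 1 library. In the exosome comparisons the regulator called was Hif1a, the oxygen-regulated transcription factor. Hif1a was lower with BMDM-HG-exo than with PBS (log2 fold change -0.18 ± 0.04, SE, adjusted p = 0.00412), where 4.84% of all genes were called. It fell short of the fold limit without BMDM-HG-exo 1 (-0.148). For BMDM-NG-exo against PBS 0 of the 10 regulators were called (lowest log2 fold change -0.14, smallest limma adjusted p = 0.0564). With the exosome groups set against each other 0 were called as well (lowest -0.08, smallest adjusted p = 0.813). A change of Hif1a particular to BMDM-HG-exo was thus not shown.

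Of 7 carriers and porins 2 rose and 1 fell in HG, where 7.74% of all genes tested rose and 5.53% fell. Slc25a5, the ADP/ATP carrier of proliferating cells that exchanges the ATP made by complex V for ADP, rose from 2991 ± 220 to 3542 ± 43.5 normalized counts (mean ± SD) with no overlap, a log2 fold change of 0.25 ± 0.05 (SE, adjusted p = 0.000468). Vdac3, an outer membrane porin, was at 0.18 ± 0.06 (SE, adjusted p = 0.0350). Ucp2, an inner membrane carrier of metabolites, fell by 0.10 ± 0.03 on the log2 scale (SE, adjusted p = 0.0284), with every HG library below every NG library. Ucp2 was also lower with BMDM-HG-exo than with PBS, by a log2 fold change of -0.23 ± 0.03 (SE, adjusted p = 1.32e-05), and BMDM-NG-exo against PBS gave -0.15 ± 0.03 (SE, adjusted p = 0.00548), which before rounding lay under the fold limit of 0.15. Between the 2 exosome groups Ucp2 did not pass the test (-0.08 ± 0.03, SE, adjusted p = 0.702). Ucp2 passed in HG against NG in 4 of 8 fits that left out 1 library each, its adjusted p being 0.117 without NG 5, 0.0659 without HG 2, 0.0649 without HG 4 and 0.101 without HG 6, and against PBS it passed in all 12 such fits. Vdac3 passed in 3 of 8, with 0.10 without NG 1, 0.0620 without NG 3, 0.0856 without NG 5, 0.119 without HG 2 and 0.114 without HG 6, while Slc25a5 passed in all 8.

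Of the noncoding genes of the mitochondrial chromosome, the rRNA genes mt-Rnr1 and mt-Rnr2 were at -0.03 and 0.05 in HG over NG. For BMDM-HG-exo over BMDM-NG-exo both were below 0, between -0.10 and -0.09, and 0 were called (smallest limma adjusted p = 0.516). Both had an unadjusted p under 0.05, as had 6.54% of all genes tested, and 1 did not overlap between the groups, where 2.01% of all genes lay lower in this way. Of 6 mitochondrial tRNA genes tested 1 rose in HG, where 7.74% of all genes tested rose. It was mt-Ty on the minus strand, from 164 ± 12.2 to 252 ± 25.7 normalized counts (mean ± SD, n = 4) with no overlap, a log2 fold change of 0.61 ± 0.15 (SE, adjusted p = 0.00302). On the same strand mt-Nd6 had a log2 fold change of -0.09.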

How the data were processed

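RNA of 20 BMDM libraries (5 groups of 4) was sequenced from a stranded total RNA kit after depletion of ribosomal cDNA, and per the labels reads were trimmed with cutadapt, aligned with STAR to GRCm38 and counted with featureCounts. The deposited values are a signal in the form of normalized counts, which the authors made by dividing read counts by DESeq2 median-ratio size factors; the annotation release is not given in the sources used here. Gene IDs were matched to GENCODE M21 (14421 of 14456). Dividing by the smallest step returned whole reads for 100% of values (within 0.01), with size factors of 0.790 to 1.25. Total reads set the counting precision, and no 2 libraries of a group agreed within sampling noise (chi-square per degree of freedom of 5.19 to 41.9 over 30 pairs).

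Tests used limma 3.58.1 (lmFit, eBayes with trend, two-sided) in R 4.3.3 on log2(normalized count + 1) for genes whose mean reached 10, with Benjamini-Hochberg adjustment over all of them. The 8 glucose libraries, the 12 exosome libraries and all 20 formed separate fits without a block. Fold changes are on this log2 scale, which understates changes of low genes. edgeR 4.0.16 and DESeq2 1.42.0 on recovered reads, other normalizations, filters, pseudocounts, a replicate block and fits without 1 library were alternatives. The model fits were tested on simulated data. The members and the gene lists were chosen with earlier results of these data known. Named genes followed a rule: all mitochondrial members, called nuclear members without overlap, the 3 smallest p in each direction against the combined controls, isoform pairs, Cycs and Cyc1, extremes per kilobase, and chosen regulators; others are named as such.

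The date in the labels pairs the exosome libraries. Deviations from group means correlated by 0.0120 on average between libraries of the same date (12 pairs) and by -0.00397 between dates (36 pairs), and the block changed no call of a member there.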

Additional observations from a re-analysis of the deposited data

Results flagged for a closer look

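In groups of 4 libraries, a library was singled out where its gap to the nearest other, over the group's whole range, exceeded Dixon's 95% critical value; chance does this in about 1 of 20 groups, and it happened in 26 of the 435 combinations of member and group (5.98%). Among the genes named here these were Cycs in BMDM-NG-exo 3 (602 normalized counts against 639 to 643), Uqcr11 in HG 1 (1044 against 965 to 974), Atp5h in PBS 3 (3890 against 4325 to 4407), Ndufv3 in HG 6 (1293 against 1466 to 1486), mt-Atp6 in NG 1 (26.9 against 18.1 to 19.3), mt-Co3 in PBS 1 (25.3 against 17.7 to 18.9) and mt-Nd6 in PBS 3 (6941 against 7849 to 8031).

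In the test of the HG minus NG difference less the BMDM-HG-exo minus BMDM-NG-exo difference (limma, all 20 libraries), Atp5b (0.21 ± 0.06 on the log2 scale, SE, adjusted p = 0.0300) passed. Of the genes beside the chain, Slc25a5 (0.29 ± 0.07, SE, adjusted p = 0.00557), Polrmt (0.36 ± 0.10, SE, adjusted p = 0.0363) and Pprc1 (0.31 ± 0.09, SE, adjusted p = 0.0289) passed it too. Without 1 library each, Slc25a5 passed in all 20 fits, while Polrmt lost the call in 8, without NG 3, NG 6, HG 4, BMDM-NG-exo 3 or 4, or BMDM-HG-exo 2, 3 or 4 (adjusted p up to 0.113). Pprc1 also lost it in 8, without NG 5, NG 6, HG 2, HG 4, BMDM-NG-exo 2 or 4, or BMDM-HG-exo 3 or 4 (adjusted p up to 0.0896).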

How the results depend on the processing

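Counts of called members were recomputed under 16 other settings (14 for the difference of the effects) and without each library in turn. The 5 nuclear members called in HG against NG became 9 at an adjusted p under 0.1, 3 with a fold limit of 0.15, with size factors from other nuclear genes or with the exon length trend removed, 1 with quantile normalization or without the variance trend, and 0 with the replicate block, and they ranged from 1 (without HG 6) to 6 without 1 library. The 1 mitochondrial member called there became 4 with quantile normalization and 0 with DESeq2, without the variance trend or with the replicate block, and ranged from 0 (without NG 3 or HG 1) to 4 (without NG 1). The glucose libraries share only the numbers 1 and 6, whose deviations correlated by 0.00712 on average over 2 pairs, so the replicate block rests on 2 pairs and does not pair the samples; it lowered the count over all genes from 1914 to 788.

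For BMDM-HG-exo against PBS the 0 mitochondrial members became 1 without PBS 3. For BMDM-NG-exo against PBS the 0 nuclear members became 1 at an adjusted p under 0.1 and ranged from 0 to 2 without 1 library. In the difference of the effects the 1 nuclear member became 2 at an adjusted p under 0.1 or with DESeq2 and 0 with quantile normalization, without the variance trend or with the replicate block, with 0 to 2 without 1 library and 0 to 1 mitochondrial members. Log2 fold changes of the called nuclear members depended on the setting as well. In HG against NG they ran from 0.29 to 0.35 for Cyc1, 0.10 to 0.15 for Cox4i1 and 0.10 to 0.20 for Cox5a. They ran from 0.02 to 0.14 for Atp5b and from 0.09 to 0.14 for Atp5h. The Atp5b difference of the effects ran from 0.08 to 0.21 over the 14 settings. The causes were not tested. Signs turned, with no call, for mt-Co3 (-0.54 with the replicate block, -0.044 to 0.53 without 1 library), mt-Nd1 (-0.025 with quantile normalization, -0.00088 to 0.086), mt-Nd3 (0.078 with quantile normalization, 0.013 with array weights, -0.079 to 0.11) and mt-Nd2 (-0.13 to 0.016). Without the variance trend the counts over all genes fell from 1914 to 654 in HG against NG, 698 to 295 in BMDM-HG-exo against PBS, 432 to 95 in BMDM-NG-exo against PBS, 29 to 1 against the combined controls and 685 to 324 in the difference. DESeq2 gave 25 in place of 2 genes between the exosome groups and 136 in place of 29 against the combined controls. Intervals were widest, past 1.5-fold in most comparisons, for the low members mt-Co2, mt-Co3, mt-Atp6, mt-Nd3, Cox7a1 and Atp5s.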
